A study of Sus scrofa with 8 samples.

Results

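The testis makes androgens in its Leydig cells, which lie between the seminiferous tubules. STAR carries cholesterol into the mitochondrion, CYP11A1 cleaves its side chain with electrons that reach it through the iron-sulphur protein FDX1, HSD3B1 and CYP17A1 carry the product on to androgens, and cytochrome b5 (CYB5A) favours the lyase step of CYP17A1. CYP19A1, the aromatase, turns androgens into estrogens, which boar testes are known to release in large amounts. HSD17B4 is a peroxisomal enzyme that oxidizes estradiol to the weaker estrone and also takes part in the peroxisomal breakdown of fatty acids, so that it acts on the products of this pathway rather than in their synthesis. The expression of these 8 genes was read from a porcine Agilent array that holds 43603 probes other than controls. The genes were taken by name, and their probes were found by matching the RefSeq accession of each probe to pig RefSeq. All 8 genes had a probe, of 2228 named genes on the array, and together they had 15 probes of 1 spot each.

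The study asked whether a diet changes gene expression in the testis, since the boars founded a pedigree for the study of transgenerational epigenetic inheritance. Testes of 8 Large White boars slaughtered at 10 months of age were hybridized to 1 array each with a single dye. The 4 boars m_9597, m_9599, m_9499 and m_9527 had been fed a supplemented diet from month 1 to month 10, with added methionine, choline, betaine, folate, vitamin B6 and vitamin B12, which supply or handle methyl groups. The 4 boars m_9598, m_9600, m_9502 and m_9528 received the control diet over the same months. Full brothers of a single litter, with both diets among them, were m_9597 and m_9599 on the supplemented and m_9598 and m_9600 on the control diet. They shared a slide, so that litter and slide cannot be told apart. The boars came from 3 litters by the methods, and to which litters the other boars belong is not stated in the sources used here. Neither can diet and position, since supplemented boars always had the positions 1 and 3 of a slide and control boars 2 and 4. The deposited intensities (gMedianSignal, without subtraction of the background) were quantile-normalized on the log2 scale, and all differences below are supplemented minus control diet on that scale. Since the background was left in, differences of dim probes come out too small.

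The median intensity of an array lay between 108 and 192.5, and 76.3% to 86.5% of the spots were well above background. INSL3, a hormone of mature Leydig cells, was bright in every testis, with log2 signals of 18.50 to 18.74. Its range of 0.24 was 0.64 with background-subtracted signals scaled to the 75th percentile, where STAR ranged over 3.5. The other Leydig cell markers that were well above background on all arrays varied more, from 9.83 to 12.01 for LHCGR, the receptor for luteinizing hormone, and from 7.99 to 9.21 for NR5A1, a transcription factor of steroid-forming cells. Probes of Sertoli cell and germ cell markers were present as well. Of the adrenal cortex markers only CYP21A2 had a probe, with log2 signals of 5.93 to 6.53, and no red blood cell marker had one. In whole tissue, fewer cells of a type and less RNA per cell cannot be told apart.

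All 15 probes were present, which here means that at least 2 of the 4 boars of a diet had a signal above 25 that was flagged as well above background, and 14 of them were well above background on all 8 arrays. Their spread between boars was wide. The residual SD within the diets had a median of 0.491 over the 15 probes against 0.296 over the 36982 present probes, and it was above 0.9 for 5 of the 15 and for 1.64% of all. No difference between the diets was found after adjustment over all present probes. With limma 1 of the 15 probes, that of HSD17B4, reached a diet P-value under 0.05, where 1.86% of all present probes had one and 0.925% had one with a lower signal on the supplemented diet. The smallest adjusted P-value of the 15 probes was 0.84 with limma. The diet groups overlapped for every one of the 15 probes, while 1.13% of the present probes had diet groups that did not overlap. The difference was below 0 for 13 of the 15 probes, with a median of -0.25, beside 50.5% and a median of -0.0028 over all present probes. Since the probes of a gene share their transcript and several genes vary together, the 15 differences are not independent.

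**Figure D1:**
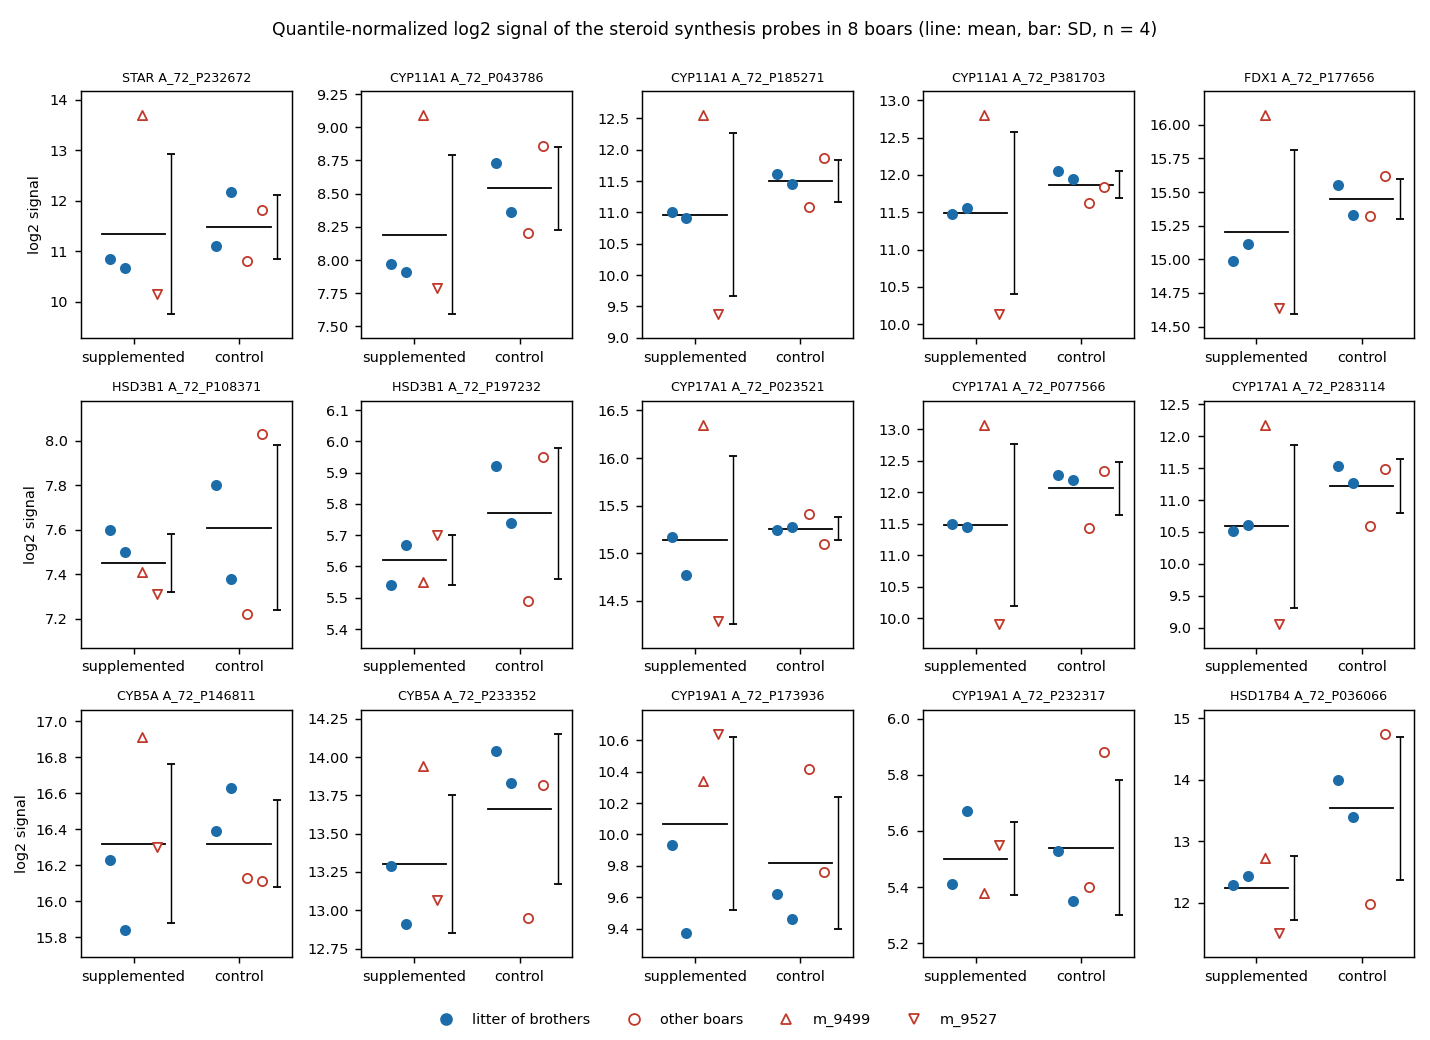
Log2 signal (vertical axis, its own scale in each panel) of the 15 probes in the supplemented and control diet groups, with 1 point per boar, the group mean as a line and its SD as a bar (n = 4). For STAR, CYP11A1, FDX1 and CYP17A1 the highest boar (m_9499) and the lowest (m_9527) both belong to the supplemented group, and no panel shows 2 groups without overlap.

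STAR, which brings cholesterol to the inner mitochondrial membrane, had the widest range of the 15 probes. Its probe A_72_P232672 had log2 signals of 10.84 in m_9597, 10.66 in m_9599, 13.69 in m_9499 and 10.15 in m_9527 on the supplemented diet. On the control diet the signals were 11.10 in m_9598, 12.18 in m_9600, 10.80 in m_9502 and 11.82 in m_9528. The boar m_9499 stood 2.83-fold above the next highest boar, whereas the other supplemented boars lay below the control mean. The means were 11.34 ± 1.59 (SD, n = 4) and 11.48 ± 0.64 (SD, n = 4), and limma gave a difference of -0.14 (SE 0.69, 95% interval -1.69 to 1.41, adjusted P = 0.964).

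CYP11A1, the side-chain cleavage enzyme, was read by 3 probes. The brightest, A_72_P381703, gave 11.48 in m_9597, 11.56 in m_9599, 12.80 in m_9499 and 10.13 in m_9527, against 12.05 in m_9598, 11.95 in m_9600, 11.63 in m_9502 and 11.84 in m_9528. The control boars lay within 0.43 of each other, and the supplemented group held values on both sides of them. The means were 11.49 ± 1.09 and 11.87 ± 0.18 (SD, n = 4 each), with a difference of -0.38 (SE 0.46, 95% interval -1.40 to 0.65, limma adjusted P = 0.853). The probe A_72_P185271 had the same order at the extremes, from 9.37 in m_9527 to 12.55 in m_9499 among the supplemented boars and from 11.08 to 11.87 among the controls, with a difference of -0.55 (SE 0.55). The dimmer probe A_72_P043786 ran from 7.79 in m_9527 to 9.09 in m_9499 and from 8.20 to 8.86 in the controls, with a difference of -0.35 (SE 0.29).

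FDX1, the electron carrier of CYP11A1, had the same boars at its extremes. Its probe A_72_P177656 gave 14.99 in m_9597, 15.11 in m_9599, 16.07 in m_9499 and 14.64 in m_9527, and 15.55 in m_9598, 15.33 in m_9600, 15.32 in m_9502 and 15.62 in m_9528. All supplemented boars other than m_9499 were below all control boars. With m_9499 included the means were 15.20 ± 0.61 and 15.45 ± 0.15 (SD, n = 4 each), and the difference was -0.25 (SE 0.28, 95% interval -0.87 to 0.37, limma adjusted P = 0.845).

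CYP17A1, which has hydroxylase and lyase activity and leads from progestagens to androgens, was also read by 3 probes. The brightest probe A_72_P023521 gave 15.17 in m_9597, 14.77 in m_9599, 16.35 in m_9499 and 14.29 in m_9527, and 15.25 in m_9598, 15.28 in m_9600, 15.41 in m_9502 and 15.10 in m_9528. Its control boars lay within 0.30 of each other, and its difference was -0.12 (SE 0.37, 95% interval -0.95 to 0.72, limma adjusted P = 0.941). The probe A_72_P077566 gave 11.49 in m_9597, 11.44 in m_9599, 13.07 in m_9499 and 9.91 in m_9527, against 12.27 in m_9598, 12.20 in m_9600, 11.43 in m_9502 and 12.33 in m_9528. Here the control boar m_9502 fell to the level of the brothers on the supplemented diet. The difference was -0.58 (SE 0.55, 95% interval -1.82 to 0.66, limma adjusted P = 0.840). The probe A_72_P283114 followed it closely, from 9.06 in m_9527 to 12.18 in m_9499 and from 10.60 to 11.53 in the controls, with a difference of -0.63 (SE 0.55).

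The 8 probes of STAR, CYP11A1, FDX1 and CYP17A1 were thus all highest in m_9499 and all lowest in m_9527, both on the supplemented diet. Of the 15 probes these 8 had both extremes, as had 1.5% of the present probes. Taken singly, 9 of the 15 and 7.99% of the present probes were highest in m_9499. Lowest in m_9527 were 9 of the 15 and 23.1% of the present probes. Between these boars the 8 probes differed by 1.29 to 3.53 on the log2 scale, which is 2.45- to 11.6-fold. The median absolute difference over all present probes was 0.31, and 1.64% of them had a difference of at least 1.29 in this direction. The grouping of the 4 genes was made after their values were seen, so their shared extremes follow in part from the choice. Some cell markers moved in part with these probes. LHCGR was highest in m_9499, at 12.01, and stood at 10.02 in m_9527, with its lowest value, 9.83, in m_9599. NR5A1 had 9.03 and 8.13 in m_9499 and m_9527, with its highest value, 9.21, in m_9598 and its lowest, 7.99, in m_9502. The 5 Leydig cell marker probes had a Pearson r of -0.05 to 0.64 with STAR over the 8 boars, with a median of 0.59. They include the dim DLK1 probes A_72_P131701 and A_72_P035731, well above background on 4 and 5 arrays. The median deviation of the 5 probes from the mean was lowest in m_9527, at -0.27, with -0.03 to 0.07 in the other boars. Their summed log2 signal was 18.50 to 18.69 on the supplemented and 18.51 to 18.75 on the control diet. This sum was almost wholly that of INSL3. Only 8 present probes were brighter than INSL3 by mean, so that quantile normalization left the sum little room to vary. It therefore cannot show whether Leydig cell content differed. The peritubular probes, of DES and CNN1, were mostly lower in m_9499 than in m_9527. The values in these boars were 13.67 and 14.41 for DES A_72_P177466, 13.32 and 14.22 for DES A_72_P209552, and 11.11 and 11.74 for CNN1. The dim DES probe A_72_P350098, well above background on 5 arrays, had 5.35 and 5.08. The summed log2 signal of the 4 peritubular probes was 14.64 to 15.44 on the supplemented and 14.14 to 15.18 on the control diet, highest in m_9527. Their r with STAR ran from -0.45 to 0.22, with a median of -0.29. The 11 Sertoli cell probes had an r with STAR of -0.86 to 0.61, with a median of -0.18. Among them AMH A_72_P165316 was lowest in m_9499, at 9.97, with 10.68 in m_9527. INHA A_72_P146956 went the other way between these boars, with 8.49 and 7.73. The part of cell numbers in the order of the boars was not tested.

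**Figure D2:**
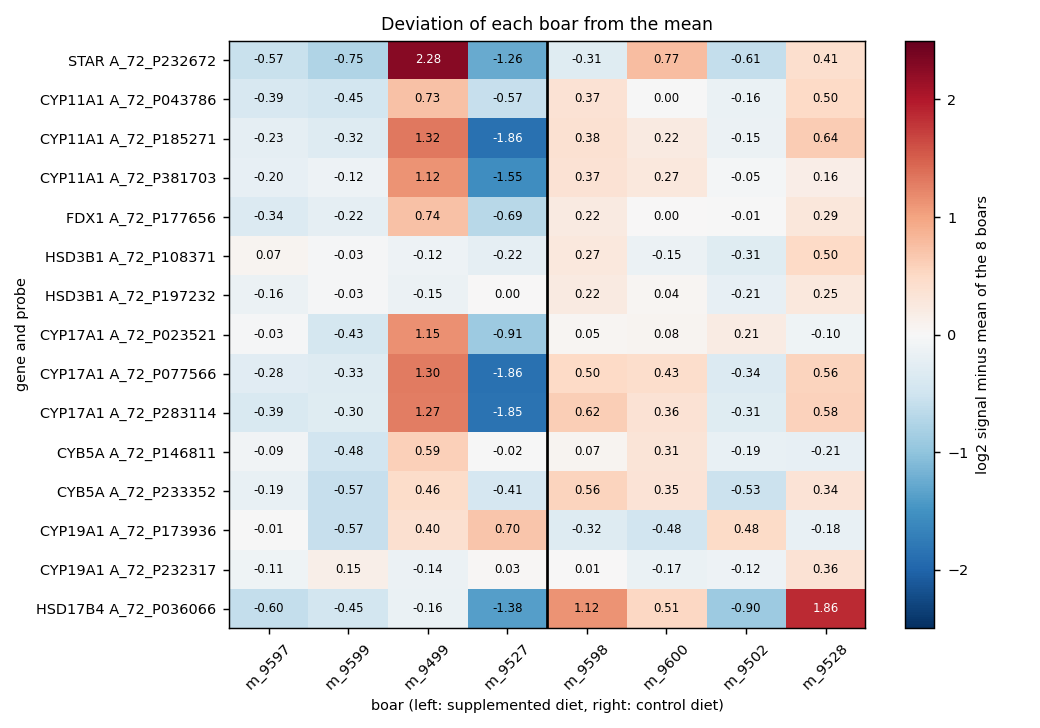
Log2 signal of each of the 15 probes (rows) in each boar (columns, supplemented diet left of the line and control diet right of it) as the deviation from the probe's mean over the 8 boars. The probes of STAR, CYP11A1, FDX1 and CYP17A1 are red in m_9499 and blue in m_9527, whereas HSD17B4 is highest in m_9528 and the CYP19A1 probe A_72_P173936 is high in m_9499, m_9527 and m_9502.

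The diet differences of these 8 probes rested on both boars. All 8 were highest in m_9499 and lowest in m_9527. Leaving out m_9499 therefore had to lower the differences, and leaving out m_9527 had to raise them. Over all 8 boars they ran from -0.63 to -0.12, with 0 of 8 P-values under 0.05 with limma. Without m_9499 they ran from -1.16 to -0.52 and all 8 had a limma P-value under 0.05, as had 9 of the 15 probes in all and 2.03% of the present probes, with a smallest adjusted P-value of 0.888 among the 8. The 3 probes of CYP11A1 and the FDX1 probe then had diet groups that did not overlap, as had 3.28% of the present probes. Without m_9527 the differences ran from -0.22 to 0.25 with 0 limma P-values under 0.05. Without both boars, a setting chosen after their values were seen, they ran from -0.72 to -0.29, and 1 of the 8 had a limma P-value under 0.05. The array of m_9527 had the lowest median intensity of all, 108, and that of m_9499 had 158, and its part in these values was not tested.

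**Figure D3:**
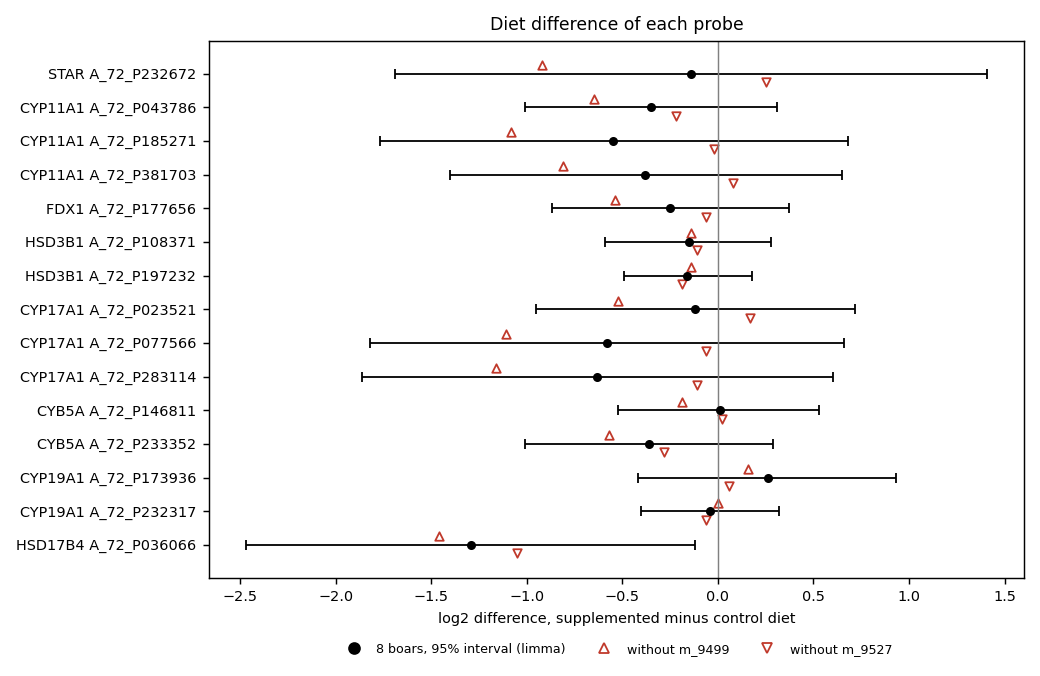
Difference between the diets (horizontal axis, log2, supplemented minus control) for each of the 15 probes. Filled points with bars are the limma estimates over 8 boars with 95% intervals, and open triangles are the estimates without m_9499 (pointing up) and without m_9527 (pointing down). The interval of HSD17B4 alone lies wholly below 0. The estimates for STAR, CYP11A1, FDX1 and CYP17A1 shift to the left without m_9499 and to the right without m_9527. These shifts follow from m_9499 being the highest and m_9527 the lowest boar for these genes.

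Within the litter of brothers both supplemented boars were below both control boars for 12 of the 15 probes, among them all 8 probes of the 4 genes, where 19.0% of the present probes had this order. The differences of the 8 probes in the brothers ran from -0.89 for STAR to -0.29 for CYP17A1 A_72_P023521, and 6 of them, or 8 of the 15 probes, had a limma P-value under 0.05, as had 6.44% of the present probes. The smallest adjusted P-value among the 8 was 0.533 with limma. In the other boars the 8 differences ran from -0.52 to 0.61 with 0 limma P-values under 0.05. The difference in the effect of the diet between the brothers and the other boars was tested as an interaction, and for none of the 8 probes was its limma P-value under 0.05. Each part holds 2 boars per diet.

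HSD3B1, which oxidizes pregnenolone and other delta-5 steroids, was not highest in m_9499, unlike CYP11A1 and CYP17A1. Its probe A_72_P108371 gave 7.60 in m_9597, 7.50 in m_9599, 7.41 in m_9499 and 7.31 in m_9527, and 7.80 in m_9598, 7.38 in m_9600, 7.22 in m_9502 and 8.03 in m_9528. The supplemented boars lay within 0.30 of each other, inside the wider control group. The difference was -0.15 (SE 0.20, 95% interval -0.59 to 0.28, limma adjusted P = 0.858). The second probe A_72_P197232, at only 1.64 to 3.06 times the local background, gave 5.54 to 5.70 on the supplemented and 5.49 to 5.95 on the control diet, with a difference of -0.16 (SE 0.15) that was -0.33 with background-subtracted signals. Both probes were highest in m_9528 and lowest in m_9502.

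CYB5A, an electron carrier of the endoplasmic reticulum that is used by many enzymes beside CYP17A1, was read by 2 probes. Their Pearson r over the 8 boars was 0.68 and their Spearman rho 0.76, and both were lowest in m_9599. The brighter probe A_72_P146811 gave 16.23 in m_9597, 15.84 in m_9599, 16.91 in m_9499 and 16.30 in m_9527, and 16.39 in m_9598, 16.63 in m_9600, 16.13 in m_9502 and 16.11 in m_9528. The difference over 8 boars was 0.01 (SE 0.23, 95% interval -0.52 to 0.53, limma adjusted P = 0.995). It was -0.47 in the brothers and 0.48 in the other boars, and this interaction of -0.95 (SE 0.38) was the 1 of 15 with a limma P-value under 0.05 (adjusted P = 1.0), beside 2.0% of the present probes. The probe A_72_P233352 gave 13.29 in m_9597, 12.91 in m_9599, 13.94 in m_9499 and 13.07 in m_9527, and 14.04 in m_9598, 13.83 in m_9600, 12.95 in m_9502 and 13.82 in m_9528. The control boar m_9502 again lay with the lower supplemented boars. The difference was -0.36 (SE 0.29, limma adjusted P = 0.840), and it was -0.60 without m_9502, where 16.6% of the present probes had a limma P-value under 0.05 and this probe and HSD17B4 were the 2 of the 15.

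CYP19A1, the gonadal aromatase of the pig, was read by a brighter and a dim probe, with a Pearson r of -0.28 between them. As for HSD3B1, neither was highest in m_9499 or lowest in m_9527, unlike the probes of STAR, CYP11A1, FDX1 and CYP17A1. Which aromatase transcript each probe binds is uncertain. The brighter CYP19A1 probe A_72_P173936 gave 9.93 in m_9597, 9.37 in m_9599, 10.34 in m_9499 and 10.64 in m_9527, and 9.62 in m_9598, 9.46 in m_9600, 10.42 in m_9502 and 9.76 in m_9528. It was highest in m_9527, the boar that was lowest for STAR, CYP11A1, FDX1 and CYP17A1 and for 23.1% of the present probes. The diet means were 10.07 ± 0.55 and 9.82 ± 0.42 (SD, n = 4 each), with a difference of 0.26 (SE 0.30, 95% interval -0.42 to 0.93, limma adjusted P = 0.850). The brothers were lower than the other boars by a difference of -0.70 (SE 0.21, limma adjusted P = 0.573), the 1 of the 15 probes with a P-value under 0.05 in this comparison, where 8.11% of the present probes had one. With background-subtracted signals scaled to the 75th percentile this difference was -0.51 and its limma P-value was above 0.05. The second probe A_72_P232317 was near background, at 1.34 to 2.21 times its level and well above it on 6 arrays, with log2 signals of 5.35 to 5.88 and a difference between the diets of -0.04 (SE 0.16), which was -0.36 (SE 0.35) with background-subtracted signals.

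HSD17B4 alone reached a limma P-value under 0.05 for the diet before adjustment. Its probe A_72_P036066 gave 12.28 in m_9597, 12.43 in m_9599, 12.72 in m_9499 and 11.50 in m_9527, against 14.00 in m_9598, 13.39 in m_9600, 11.98 in m_9502 and 14.74 in m_9528. The controls other than m_9502 were at 13.39 or above and the supplemented boars at 12.72 or below, while m_9502 lay among the supplemented boars. The means were 12.23 ± 0.52 and 13.53 ± 1.17 (SD, n = 4 each). The signal was 2.45-fold lower on the supplemented diet, a log2 difference of -1.29 (SE 0.52, 95% interval -2.47 to -0.12, limma P-value 0.0338, adjusted P = 0.840), and the exact two-sided permutation test gave a p of 0.114, where the smallest it allows for 4 against 4 is 0.0286. The difference was -1.34 in the brothers and -1.25 in the other boars, with an interaction of -0.09 (SE 1.18). With each boar left out in turn it stayed between -1.81 and -0.89, but the limma P-value passed 0.05 without m_9597, m_9598, m_9600, m_9527 or m_9528, the largest being 0.0937 without m_9528, and the ordinary equal-variance test gave 0.0897.

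Markers of other cells were set beside the HSD17B4 signals. The Pearson r of the 12 germ cell marker probes with HSD17B4 over the 8 boars ran from -0.52 to 0.93, with a median of 0.62. Their summed log2 signal was 20.05 to 20.46 on the supplemented and 20.13 to 20.76 on the control diet, lowest in m_9527 and highest in m_9528, as was HSD17B4. Several of the 12 were CRISP2 probes. KIT A_72_P165111 and UCHL1 went the other way in m_9528, where they were lowest, at 12.11 and 12.41. All 5 duct epithelium probes, those of EPCAM and CDH1 out of 6 listed genes, had a lower mean on the supplemented diet. Their r with HSD17B4 ran from 0.57 to 0.7, and their median diet difference was -0.95, with 0 limma P-values under 0.05. Their summed log2 signal was 10.94 to 13.71 on the supplemented and 12.14 to 14.29 on the control diet, and 1 CDH1 probe was well above background on only 2 arrays. For the 4 peritubular probes r ran from -0.91 to 0.44, with a median of -0.68. The correlations share the arrays and their normalization, and the part of other cells in the HSD17B4 difference was not tested.

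Over the 8 boars the 28 pairs among the 8 probes of STAR, CYP11A1, FDX1 and CYP17A1 had a Pearson r of 0.76 to 1.0 with a median of 0.88, and a Spearman rho of 0.48 to 1.0 with a median of 0.90. The 9 pairs between a CYP11A1 and a CYP17A1 probe had a median r of 0.90. Without m_9499 and m_9527 the 28 values ran from 0.19 to 0.99, with a median of 0.82, so that the high values of some pairs rested on those boars. The low values came with CYP17A1 A_72_P023521, whose r with the other 2 CYP17A1 probes was 0.85 and 0.84 over 8 boars and 0.21 and 0.19 without these boars. CYB5A followed the 8 probes with an r of 0.46 to 0.85, HSD17B4 with 0.23 to 0.71, HSD3B1 with -0.29 to 0.46 and CYP19A1 with -0.43 to 0.10. Some of these values rested on the same boars. Without m_9499 and m_9527 the median r with the 8 probes went from 0.195 to 0.66 for HSD3B1 and from 0.615 to 0.88 for HSD17B4, and the HSD3B1 probe A_72_P197232 had an r of 0.90 and 0.93 with CYP17A1 A_72_P077566 and A_72_P283114. HSD17B4 and the HSD3B1 probes had an r of 0.84 and 0.81. The CYP19A1 probes had an r of -0.28 with each other. These values describe 8 arrays normalized together.

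**Figure D4:**
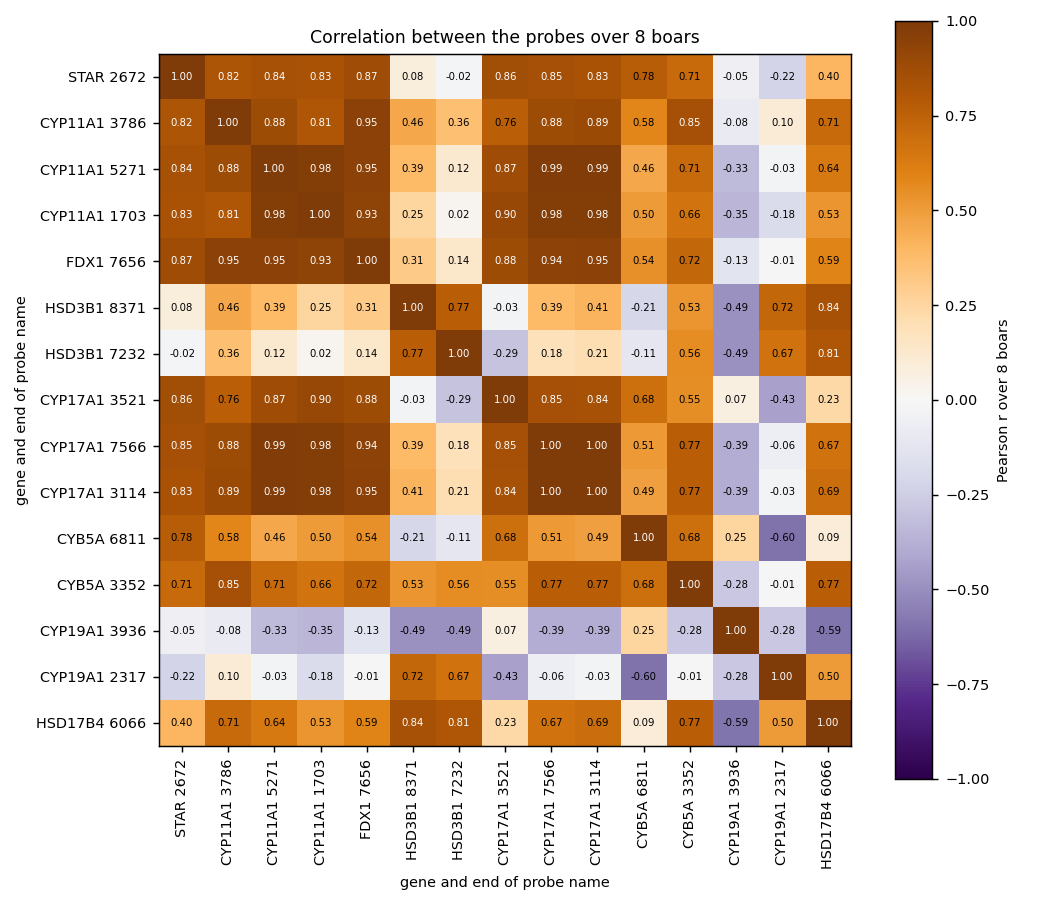
Pearson r over the 8 boars between the log2 signals of the 15 probes, named by gene and the last digits of the probe on both axes. The 8 probes of STAR, CYP11A1, FDX1 and CYP17A1 have values of 0.76 to 1.0 with each other, whereas CYP19A1 has values of -0.43 to 0.10 with them.

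Among all named genes, the closest pattern to the brightest probe of each gene was that of DBI for STAR (r = 0.93), of CYP17A1 for CYP11A1 (r = 0.98), of MGST1 for FDX1 (r = 0.96), of HSBP1 for HSD3B1 (r = 0.99), of CLDN2 for CYP17A1 (r = 0.96), of PSMB9 for CYB5A (r = 0.90), of OPRL1 for CYP19A1 (r = 0.99) and of CAPRIN1 for HSD17B4 (r = 0.99). DBI is an acyl-CoA binding protein that also binds the mitochondrial protein TSPO. Each value is the highest over 2909 to 2917 named probes and was selected as such. For the mean of the standardized STAR, CYP11A1, CYP17A1 and HSD3B1 probes the closest genes were CCND3 (r = 0.96), PIK3IP1 (r = 0.96), FDX1 (r = 0.95), the steroid sulfotransferase SULT2A1 (r = 0.94) and CITED1 (r = 0.94).

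Of 34 other genes that transport, make or convert steroids, 9 had a named probe, 15 probes in all and all present. For the diet none had a limma P-value under 0.05 in either direction, 10 of the 15 were lower on the supplemented diet, and their median difference was -0.07. With each gene taken by its probe of smallest P-value, the 5 with the largest differences were CYP19A3, CYP19A2, AKR1CL1, TSPO and AKR1C1. CYP19A3 (A_72_P035776), which RefSeq lists as an aromatase gene beside CYP19A1, ran from 8.61 in m_9527 to 12.28 in m_9499 on the supplemented diet and from 10.12 in m_9502 to 12.69 in m_9528 on the control diet. The supplemented boars other than m_9499 were below all control boars, with a difference of -1.45 (SE 0.76, limma adjusted P = 0.840). CYP19A2 (A_72_P177896) gave 7.95 in m_9597, 8.55 in m_9599, 10.93 in m_9499 and 7.67 in m_9527, and 10.03 in m_9598, 10.37 in m_9600, 8.91 in m_9502 and 11.31 in m_9528, with a difference of -1.38 (SE 0.72, limma adjusted P = 0.840). The CYP19A2 and CYP19A3 signals had an r of 0.99 with each other over the 8 boars, a median r of 0.86 and 0.89 with the 8 probes of STAR, CYP11A1, FDX1 and CYP17A1, and an r of -0.29 and -0.39 with CYP19A1 A_72_P173936. CYP19A1, CYP19A2 and CYP19A3 neighbour each other in the genome and are closely related in sequence. The probe sequences were not used here, so which of their transcripts each probe binds is uncertain.

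**Figure D5:**
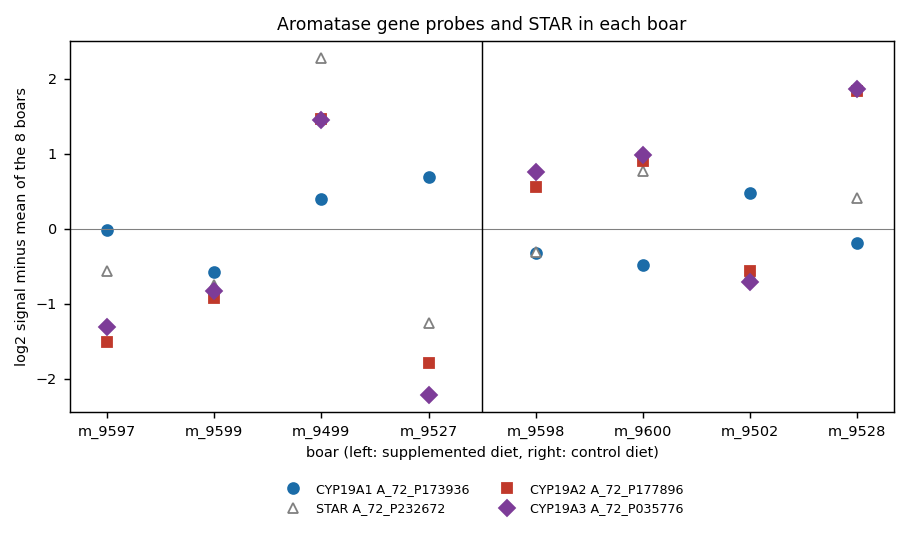
Log2 signal of the CYP19A1, CYP19A2 and CYP19A3 probes and of STAR in each boar, as the deviation from the probe's mean over the 8 boars (supplemented diet left of the line, control diet right of it). CYP19A2 and CYP19A3 move with each other, stand above 0 in m_9499, where STAR is highest, and are themselves highest in m_9528. CYP19A1 is highest in m_9527, where all the others are lowest.

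AKR1CL1, an aldo-keto reductase, was read by 4 probes, all lower on the supplemented diet. Its probe A_72_P177641 gave 16.39 in m_9597, 16.28 in m_9599, 16.28 in m_9499 and 15.69 in m_9527, and 17.08 in m_9598, 17.07 in m_9600, 15.87 in m_9502 and 16.57 in m_9528. The control boar m_9502 was again low, and the difference was -0.49 (SE 0.28, limma adjusted P = 0.840). TSPO (A_72_P165511), a cholesterol-binding protein of the outer mitochondrial membrane, had a difference of 0.41 (SE 0.44) and was lowest in m_9499 and m_9598, at 11.21 and 11.23, against 11.59 to 12.98 in the other boars. AKR1C1, an aldo-keto reductase that acts on steroids, had a difference of 0.32 (SE 0.27) for the probe A_72_P223422. This probe was matched through another RefSeq transcript than the AKR1C1 probes A_72_P076786 and A_72_P077461. The probe A_72_P076786, singled out after its values were seen, gave 12.72 in m_9499, 10.20 in m_9527 and 11.13 in m_9502, and 5.26 to 6.65 in the other boars of both diets. Its difference was 1.41 (SE 1.67), and that of the probe A_72_P077461, high in the same boars, was 1.25 (SE 1.46).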

How the data were processed

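The authors extracted testis RNA, labelled it with Cy3 and deposited, for each array, the spot intensity as Agilent Feature Extraction wrote it (version 10.5.1.1 per the file headers). They also deposited a table of quantile-normalized log2 values, which differed from the values computed here by at most 0.056 and was used as an alternative. Here log2 gMedianSignal was quantile-normalized, and the diets were compared over all 36982 present probes with two-sided tests of limma 3.58.1 in R 4.3.3, adjusted by the method of Benjamini and Hochberg, without a block. The code was tested on simulated data. The number of arrays limits the precision, and the boars are separate animals. Of 3239 probes with a RefSeq accession 2628 matched the RefSeq table of Sscrofa11.1, used for names and neighbours only. All probes of the 8 genes were named, of the other pathway genes the 5 with the largest differences (by the probe with the smallest P-value of each gene), and as most alike the gene with the highest r. The genes, lists and rules were chosen with earlier results of these data known. Replicate numbers within a diet follow accession order. Figures were drawn with matplotlib 3.10.9. The sperm samples of the study were not analysed here.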

Additional observations from a re-analysis of the deposited data

Results flagged for a closer look

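Among groups of 4 boars, 3 of 48 held a boar farther from the others than the 95% limit of Dixon's test, where chance alone would give about 2.4. The CYP11A1 probe A_72_P043786 stood at 9.09 in m_9499, while the other supplemented boars lay between 7.79 and 7.97. The CYP17A1 probe A_72_P077566 stood at 11.43 in m_9502, below the other control boars at 12.20 to 12.33. The macrophage markers had a median deviation of 0.67 in m_9600, while the other control boars lay between -0.45 and -0.39. The diet difference of the CYB5A probe A_72_P146811 differed between the brothers and the other boars by -0.95 (limma interaction, adjusted P = 1.0), with lower signals in both supplemented brothers and higher signals in both other supplemented boars.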

How the results depend on the processing

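No adjusted P-value of the 15 probes fell below 0.05 with any of the 22 alternatives. Their median difference stayed between -0.57 and -0.06. The number of the 15 probes with a P-value under 0.05 was 1 over all boars, 3 with array weights, 0 with the ordinary equal-variance test, 8 in the brothers alone, 0 in the other boars alone and 0 to 9 with each boar left out, 9 without m_9499, 2 without m_9502, 1 without m_9599 and 0 without any of the other boars. For all present probes it was 689, and 5830, 2381, 359 and 339 to 6155 with array weights, in the brothers, in the other boars and with each boar left out, the extremes without m_9528 and m_9502, and 411 without m_9499 and m_9527. For the other pathway genes it was 0 of 15, 6 with array weights, 6 in the brothers, 0 to 6 with each boar left out (2 without m_9499 and 6 without m_9502) and 2 without m_9499 and m_9527. The probes whose diets did not overlap were 0 to 4 with each boar left out, the 4 without m_9499, where 3.28% of the present probes did not overlap. For the other boars left out this share was not computed. Between the brothers and the other boars 1 of 15 probes had a P-value under 0.05, 0 with background-subtracted signals scaled to the 75th percentile, and 1 to 4 with each boar left out, 4 without m_9499. Of the 36982 present probes 2999 had one, and 3074 with background-subtracted signals. With each boar left out 1557 to 9519 of them had one, the extremes without m_9599 and m_9528, and 3351 without m_9499. The sign turned for CYB5A A_72_P146811 to -0.00194 with background-subtracted signals, -0.18 with array weights, -0.47 in the brothers and -0.28 without m_9499 and m_9527, for CYB5A A_72_P233352 to 0.12 in the other boars, for CYP19A1 A_72_P232317 to 0.1 in the brothers, for CYP19A1 A_72_P173936 to -0.17 without m_9499 and m_9527, and in the other boars for STAR to 0.61 and for CYP17A1 A_72_P023521 to 0.06. With each boar left out, STAR ran from -0.92 to 0.25, CYP11A1 A_72_P381703 from -0.81 to 0.08, CYP17A1 A_72_P023521 from -0.52 to 0.17, CYB5A A_72_P146811 from -0.19 to 0.17 and CYP19A1 A_72_P232317 from -0.10 to 0.07. The causes were not tested. HSD17B4 kept its sign under every alternative, and with the slide as a block its limma P-value was 0.0456. The alternatives for the other pathway genes and for the overlap of the diets, and the removal of m_9499 and m_9527 together, were chosen after seeing the data. The labels number no replicates, so that no block on replicate numbers was fitted.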
